A study of Mus musculus with 54 samples.

Results

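Astrocytes are the star-shaped support cells of the brain, and 10 genes that mark them or their reactive state are described here in mouse brain, kidney and heart. The genes are Gfap, Aqp4, Slc1a2, Slc1a3, Aldh1l1, S100b, Gja1, Serpina3n, C4b and Sox9, picked by name, and each was found by the symbol of its Ensembl gene. They are 10 of the 54232 genes in the deposited count tables. The study asked by RNA sequencing what Cmpd60, an inhibitor of the histone deacetylases HDAC1 and HDAC2, does in tissues of old mice and in the brain of a mouse line used as a model of Alzheimer's disease. It holds 54 libraries, of which 32 are from brain, and each library was counted on its own.

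All mice were male, on a BL6 background and housed singly, and every group had daily intraperitoneal injections for 14 days. Treated mice received Cmpd60 at 22.5 mg/kg and the others received the vehicle. The 20-month-old mice without a transgene gave 6 vehicle and 6 Cmpd60 brains, 5 vehicle and 6 Cmpd60 kidneys, and 6 vehicle and 5 Cmpd60 hearts. The labels state 6 Cmpd60 and 7 vehicle mice for this set, fewer than the libraries, so organs share mice, but which ones is not stated, and each organ is analysed on its own. For the source of the older mice the labels say Taconic and a resource list of the study names The Jackson Laboratory, while the younger mice are from Taconic. The second cohort was 6 to 7 months old and gave brain only. In its APPSWE-1349 mice the transgene encodes human amyloid precursor protein in its Swedish mutant form. The promoter of that transgene is not given in the sources used here. There are 5 APPSWE vehicle brains, 4 APPSWE Cmpd60 brains, and 5 vehicle and 5 Cmpd60 brains of mice without the transgene, which the labels call AD-control and which are called littermates here. A further APPSWE brain, s139, has labels that say vehicle and a heading in the study's table that says compound, so it is shown on its own and enters no comparison. In the kidney labels a treatment tag says the opposite of the titles and source names, and the titles were followed; were the tag right, every kidney direction below would be the opposite.

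Astrocytes take up the glutamate released at synapses, buffer potassium, pass water and ions along the vessels they wrap with their end-feet, and are coupled to one another by gap junctions. When tissue is injured, inflamed or old they can become reactive: they build up intermediate filaments and secrete protease inhibitors and complement proteins. Reactive astrocytes differ between brain regions and between triggers, and several of their genes, complement among them, are also made by other cells.

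Depth was high for genes of this abundance. The 54 libraries hold 23.6 to 57.4 M counts on genes (median 28.1 M), and the 32 brain libraries 25.1 to 57.4 M (median 28.4 M), M standing for mega. Levels are given as CPM, counts per M of library size as scaled by the trimmed mean of M-values. A count of 3, taken here as the floor, is at most 0.124 CPM in any library, and that floor covers counting error alone. The brain libraries differ in how many genes have any count: 24939 to 28017 genes in the 12 libraries of 20-month mice, and 15044 to 24821 in the 20 libraries of the younger cohort. Libraries of the younger cohort are named by the sample number in their titles. Of these s155 (15044 genes, littermate vehicle), s152 (15084, littermate Cmpd60), s140 (15555, APPSWE vehicle), replicate 141 (16402, APPSWE Cmpd60) and s146 (16577, APPSWE vehicle) have the fewest. Spread between replicates was also unequal: edgeR's common biological coefficient of variation was 0.114 in the 20-month brains and 0.727 in the younger cohort.

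Levels between genes are compared per kilobase of exon, in the brains of the 20-month vehicle mice (mean ± SD, n = 6). Slc1a2 (ENSMUSG00000005089), the main glutamate transporter of the forebrain, was highest at 154.1 ± 9.88 CPM per kilobase. S100b (ENSMUSG00000033208), a calcium-binding protein, followed at 124 ± 10.6 CPM per kilobase, and Gfap (ENSMUSG00000020932), the intermediate filament by which astrocytes are most often stained, at 84.4 ± 5.09. Next came the other glutamate transporter, Slc1a3 (ENSMUSG00000005360), at 62.8 ± 3.91 CPM per kilobase, and Gja1 (ENSMUSG00000050953), the main connexin of astrocyte gap junctions, at 54.1 ± 2.27. The water channel of the end-feet, Aqp4 (ENSMUSG00000024411), was at 29.9 ± 1.504 CPM per kilobase. Lower still were complement component C4b (ENSMUSG00000073418) at 16.5 ± 1.47, the folate enzyme Aldh1l1 (ENSMUSG00000030088) at 13.9 ± 1.36, the secreted protease inhibitor Serpina3n (ENSMUSG00000021091) at 12.9 ± 1.71, and Sox9 (ENSMUSG00000000567), a transcription factor of astrocyte identity, at 8.49 ± 0.341 CPM per kilobase. In this order the neighbours C4b and Aldh1l1, and Aldh1l1 and Serpina3n, lie within the sum of their SDs, and the other neighbours lie further apart than that.

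Littermate vehicle brains held the same order of levels per kilobase, from Slc1a2 at 159 ± 14.0 to Sox9 at 8.87 ± 3.51 (mean ± SD, n = 5). There Gfap (73.0 ± 5.04 CPM per kilobase), Slc1a3 (71.6 ± 1.30) and Gja1 (70.9 ± 9.52) cannot be ranked by their means, since any pair differs by less than the sum of its SDs, and from Aqp4 downward each neighbour lies within the summed SDs of the next. All 10 genes passed the filter on low counts in every brain fit, and none is at the floor in any brain library.

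Outside the brain, 5 of the genes are low in both organs (Gfap, S100b, Slc1a2, Slc1a3 and Sox9), Aqp4 and Aldh1l1 are low in heart, and Gja1 and Serpina3n in kidney. Gfap was at 0.125 ± 0.0344 CPM in vehicle kidney (mean ± SD, n = 5) and at 0.218 ± 0.158 CPM in vehicle heart (n = 6), which is near the floor. S100b was at 0.256 ± 0.252 CPM in vehicle kidney and 1.93 ± 0.995 CPM in vehicle heart. The transporters were low as well, with Slc1a2 at 11.4 ± 0.591 CPM in vehicle kidney and 1.54 ± 0.354 CPM in vehicle heart, and Slc1a3 at 5.24 ± 1.80 CPM and 4.13 ± 2.30 CPM. Sox9 was at 4.07 ± 1.95 CPM in vehicle kidney and 3.85 ± 0.922 CPM in vehicle heart, Aqp4 at 6.65 ± 2.38 and Aldh1l1 at 6.34 ± 1.003 CPM in vehicle heart, and Gja1 at 7.58 ± 1.33 and Serpina3n at 8.34 ± 3.76 CPM in vehicle kidney. By contrast, Aldh1l1 reached 129 ± 21.8 CPM per kilobase in vehicle kidney, where the folate enzyme is made in tubules, against 13.9 ± 1.36 in brain. Gja1, which also couples heart muscle cells, was at 135 ± 6.79 CPM per kilobase in vehicle heart. Serpina3n was at 25.1 ± 4.59 CPM per kilobase in vehicle heart, against 12.9 ± 1.71 in 20-month vehicle brain. C4b was at 19.1 ± 3.49 in vehicle heart and 12.2 ± 3.79 in vehicle kidney, against 16.5 ± 1.47 in that brain. Aqp4 was at 13.0 ± 3.31 CPM per kilobase in vehicle kidney, against 29.9 ± 1.504 in that brain.

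**Figure D1:**
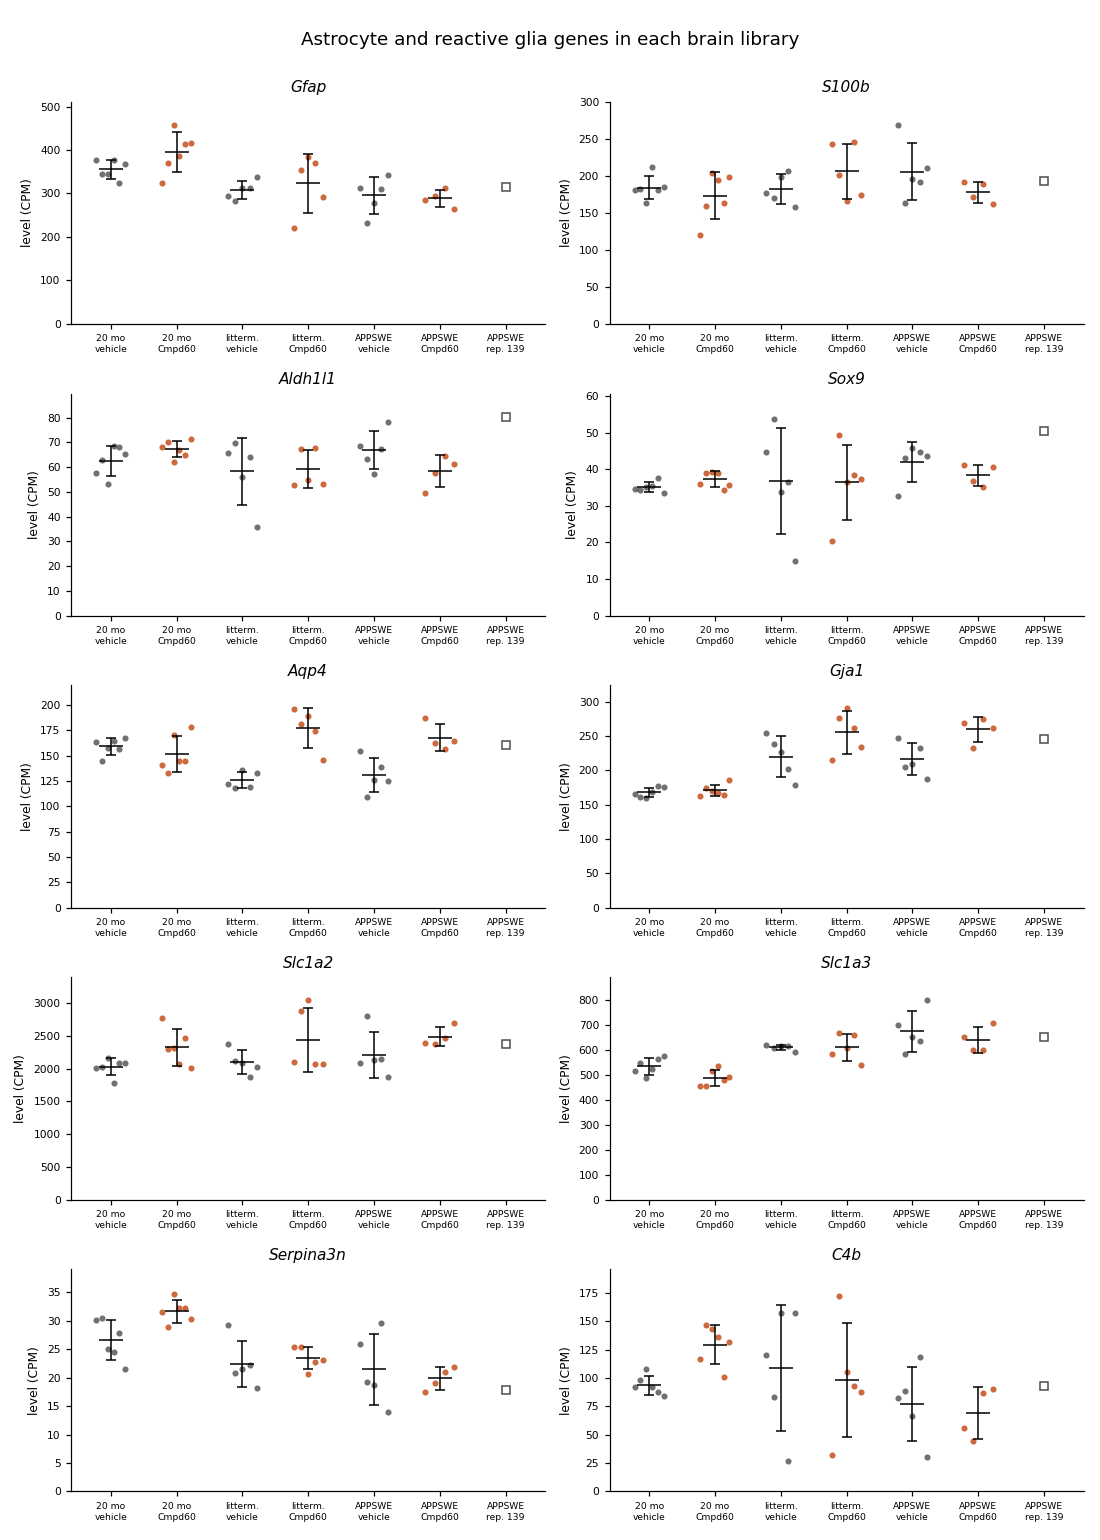
Levels (CPM, vertical axis from 0) of the 10 genes in each brain library; points are libraries, grey for vehicle and orange for Cmpd60, bars are the mean ± SD, and the open square is s139. Aqp4 is between 118 and 135 CPM in littermate vehicle brains and between 145.4 and 196 CPM in littermate Cmpd60 brains, and C4b and Sox9 spread most in the littermate brains.

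The 20-month and the 6 to 7 month vehicle brains were compared, and 2 of the 10 genes passed the threshold, in opposite directions. Aqp4, the water channel of the end-feet, rose 1.27 times in the older brains, and Gja1, the gap junction connexin, fell to 0.762 times. Gfap was higher and Slc1a3 lower in the older brains, each just short of the threshold. Glul, the enzyme that turns glutamate into glutamine, rose, and the potassium channel Kcnj10 and the secreted synapse-modulating protein Sparcl1 fell. The age of the mice cannot be told apart from anything else that differs between the cohorts, their source perhaps among it. In whole tissue, fewer cells of a type and less RNA per cell cannot be told apart either.

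Aqp4 was at 145.1 CPM in the lowest, 161 at the median and 167 in the highest of the 6 older vehicle brains, and at 122, 118, 135, 119 and 133 CPM in the 5 littermate vehicle brains. Every older brain lies above every younger one. Its log2 fold change was 0.34 (SE 0.060), with an adjusted p of 0.00584 in edgeR's quasi-likelihood test (Benjamini-Hochberg over 22949 genes). Over the 7 other settings its adjusted p ranged from 9.19e-07 to 0.106, and the call was lost at 0.106 when the number of genes detected was added as a covariate, with a log2 fold change of 0.35 (SE 0.104) there. Genes detected do not overlap between these groups (24939 to 25861 in older and 15044 to 23151 in littermate vehicle brains). The covariate thus cannot be told apart from the cohort, and nothing is concluded from its results here.

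Gja1 was at 160.3, 167 and 177 CPM in the lowest, median and highest older vehicle brain, and at 254, 238, 226, 202 and 179 CPM in the littermate vehicle brains. All 6 older brains lie below all 5 younger ones, and the lowest younger brain, s155, comes close to the older ones. For Gja1 the log2 fold change was −0.39 (SE 0.082), with an adjusted p of 0.0135 in edgeR's quasi-likelihood test, and it was called in each of the 7 other settings (adjusted p from 0.000102 to 0.0110) and with each of the 11 libraries left out. With the covariate, which has the limit given above, the log2 fold change was −0.70.

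The transporter Slc1a3 was at 488, 535 and 576 CPM (lowest, median, highest) in the older vehicle brains and at 622, 609, 615, 616 and 593 CPM in the littermate vehicle brains. Again no older brain reaches the lowest younger one. The log2 fold change of −0.19 (SE 0.055) had an adjusted p of 0.0510 in edgeR's quasi-likelihood test, with 0.00286 to 0.197 over the other settings. Without older replicate 32 (log2 fold change −0.22, adjusted p = 0.0320 in edgeR) or without littermate s155 (−0.20, adjusted p = 0.0279 in edgeR) it was called. The other transporter, Slc1a2, showed no such gap, with a log2 fold change of −0.051 (SE 0.068).

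Gfap was at 324, 357 and 377 CPM (lowest, median, highest) in the older vehicle brains and at 295, 282, 312, 311 and 339 CPM in the littermate vehicle brains. Of the older brains 5 of 6 lie above every younger one. This is a log2 fold change of 0.21 (SE 0.061) with an adjusted p of 0.0541 in edgeR's quasi-likelihood test, from 0.0120 to 0.130 over the other settings, and without littermate s155 Gfap was called (0.24, adjusted p = 0.0153 in edgeR).

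Of the reactive genes, Serpina3n had a log2 fold change of 0.25 (SE 0.14, unadjusted p = 0.0912 in edgeR) between the older and the younger vehicle brains, with 2 of 6 older brains above every younger one, and it turned to −0.14 with the covariate. C4b was at 84.4, 92.2 and 108 CPM (lowest, median, highest) in the older vehicle brains but at 120.3, 83.4, 158, 26.7 and 158 CPM in the littermate vehicle brains. The younger libraries thus spread on both sides of the older ones, from s154 at 26.7 CPM upward, and the log2 fold change was −0.22 (SE 0.30). Sox9 behaved alike, at 33.5, 34.9 and 37.6 CPM in the older vehicle brains and 44.8, 53.7, 33.6, 36.4 and 14.9 CPM in the littermate vehicle brains, the last in s155. For Sox9 the log2 fold change was −0.068 (SE 0.22), and S100b (0.018, SE 0.082) and Aldh1l1 (0.10, SE 0.14) were also within their errors of 0. With the covariate S100b turned to −0.11 and Aldh1l1 to −0.35, and in limma-voom C4b and Sox9 turned to 0.020 and 0.0051.

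In this comparison 2 of the 10 genes were called at an adjusted p under 0.05, against 6.76% of all genes tested, and 4 had an unadjusted p under 0.05, against 22.5%. Groups did not overlap for 3 of the 10 (Aqp4, Gja1 and Slc1a3), against 9.21% of all genes. DESeq2 and limma-voom each called 4 (Gfap, Aqp4, Slc1a3 and Gja1), where they called 2611 and 2631 of all 22949 genes. Without littermates s154 and s155, which have the fewest genes detected in their group, edgeR called 5, adding Gfap, Slc1a3 and Sox9 (log2 fold change of Sox9 −0.34, adjusted p = 0.0471 in edgeR, 0.0471 to 0.990 over its settings), and with the covariate it called 1. Over all genes, edgeR called 3122 of 22804 without s154 and s155 and 224 of 22949 with the covariate. Both of these settings were chosen after seeing the data.

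Among 36 other astrocyte genes, 3 rose and 3 fell between the cohorts, where 6.76% of all genes were called, and their median log2 fold change was −0.032 against 0.077 over all genes tested. Fabp7, a fatty acid-binding protein of radial glia and astrocytes, had the highest fold change of those called: 32.3 ± 8.33 CPM in the older (mean ± SD, n = 6) and 16.9 ± 7.05 CPM in the littermate vehicle brains (n = 5), log2 fold change 0.94, adjusted p = 0.0409 in edgeR's quasi-likelihood test. Glul was at 1641 ± 108 against 1105 ± 199.9 CPM (0.57, adjusted p = 0.00751 in edgeR). Sparcl1 was at 2051 ± 202 against 2967 ± 196 CPM (−0.53, adjusted p = 0.000900 in edgeR), and Kcnj10, which clears potassium, at 242 ± 15.6 against 323 ± 30.2 CPM (−0.42, adjusted p = 0.00402 in edgeR).

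Against the same 6.76% of all genes, 2 of 8 end-foot and 1 of 11 A1-type genes were called. Of the 8 genes that anchor Aqp4 or serve the end-foot, the proteoglycan Agrn rose (log2 fold change 0.46, adjusted p = 0.0244 in edgeR) and the dystrobrevin Dtna fell (−0.25, adjusted p = 0.0269 in edgeR). Of 11 pan-reactive genes none was called by edgeR, and 2 were higher at an unadjusted p under 0.05 and 0 lower, against 22.5% of all genes. Their median log2 fold change was 0.18, with Aspg the gene of lowest p (0.77, unadjusted p = 0.0161 in edgeR). Of 11 genes of the A1-type reactive state 1 rose, the adhesion protein Amigo2 (0.45, adjusted p = 0.0498 in edgeR), and their median was 0.66. Of 11 tested A2-type genes none was called by edgeR, 1 was higher at an unadjusted p under 0.05, against the same 22.5%, and the median was 0.48.

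Of 14 tested complement genes 4 were called, 3 higher and 1 lower, against 6.76% of all genes, and at an unadjusted p under 0.05 there were 3 higher and 3 lower, with a median log2 fold change of 0.23 against 0.077 over all genes. The 3 chains of C1q, which starts the classical pathway and comes mainly from microglia, all rose: C1qa from 31.2 ± 3.22 to 43.6 ± 4.29 CPM, C1qb from 29.5 ± 7.47 to 49.1 ± 4.66 CPM and C1qc from 19.3 ± 5.09 to 32.2 ± 3.51 CPM (log2 fold changes 0.48, 0.73 and 0.74, adjusted p = 0.0128, 0.0111 and 0.0155 in edgeR's quasi-likelihood test). Cd59a, an inhibitor of the last complement step, fell from 18.8 ± 6.05 to 10.4 ± 1.34 CPM (−0.86, adjusted p = 0.0199 in edgeR). Among 13 signalling regulators of the reactive state the kinase Jak1 fell (−0.24, adjusted p = 0.0172 in edgeR).

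Some markers of other cells were also called between the cohorts, where 6.76% of all genes were called, and their part in these results was not tested. Of 10 neuron markers 2 fell, Nefl (log2 fold change −0.28) and Stmn2 (−0.36), and of 8 endothelial and 5 mural markers Ly6c1 (0.52) and Rgs5 (0.26) rose. The cerebellar granule cell receptor Gabra6 fell (−0.63), the only called gene of 6 cerebellum markers. No gene of the 10 microglia or 10 oligodendrocyte markers was called by edgeR. At an unadjusted p under 0.05, 1 microglia marker was higher and 1 lower, and 0 oligodendrocyte markers differed, against 22.5% of all genes.

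In the 20-month brain, Cmpd60 was followed by higher levels of the secreted reactive genes and by mixed levels of the transporters. C4b was 1.37 times as high and Serpina3n 1.19 times as high in treated as in vehicle brains. Slc1a2 was 1.14 times as high, and Slc1a3 was 0.907 times as high. Gfap, Sox9, Aldh1l1 and Gja1 were at most 1.10 times as high, and Aqp4 and S100b were slightly lower. Of these, C4b came closest to the threshold.

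C4b was at 84.4, 92.2 and 108 CPM (lowest, median, highest) in vehicle brains and at 101, 134 and 147 CPM in Cmpd60 brains. Of the treated brains 5 of 6 lie above every vehicle brain, and the exception is replicate 37 at 101 CPM. On the log2 scale the difference was 0.46 (SE 0.079), the adjusted p 0.0516 and the unadjusted p 1.48e-05 in edgeR's quasi-likelihood test, which puts C4b at rank 7 of 24438 genes by p. The call turns on small choices: adjusted p was 0.000208 in DESeq2, 0.0743 in limma-voom, the ends of its range over the 6 other settings, and edgeR called C4b when no filter was set. Leaving out replicate 36 (log2 fold change 0.44, adjusted p = 0.0422 in edgeR), 37 (0.52, adjusted p = 0.00675) or vehicle replicate 29 (0.50, adjusted p = 0.0129) made it a call. C4b's near copy C4a had 0 to 7.39% of the counts of C4b in the 32 brain libraries (median 1.62%), so counts assigned to the copy are few beside those of C4b, and the number of reads that match both is not in the count tables.

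Serpina3n was at 21.5, 26.4 and 30.6 CPM (lowest, median, highest) in vehicle brains and at 28.9, 31.9 and 34.8 CPM in Cmpd60 brains. The groups overlap, with 4 of 6 treated brains above every vehicle brain. Between the groups the log2 fold change was 0.25 (SE 0.077), unadjusted p = 0.00519 and adjusted p = 0.194 in edgeR's quasi-likelihood test (0.0797 to 0.425 over the other settings).

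Slc1a2 was at 1788, 2053 and 2166 CPM (lowest, median, highest) in vehicle brains and at 2007, 2307 and 2779 CPM in Cmpd60 brains, with 4 of 6 treated brains above every vehicle brain. Slc1a3 was at 488, 535 and 576 CPM in vehicle brains and at 455, 485 and 535 CPM in Cmpd60 brains, with 3 of 6 treated brains below every vehicle brain. Neither passed the threshold, with log2 fold changes of 0.19 (SE 0.072, adjusted p = 0.266 in edgeR) for Slc1a2 and −0.14 (SE 0.055, adjusted p = 0.278 in edgeR) for Slc1a3. Without the 3 treated brains lowest in cerebellum markers (33, 34 and 37), a setting chosen after seeing the data, these were 0.056 (adjusted p 0.171 to 0.831 over its settings) and −0.076 (0.151 to 0.745), each smaller by more than 1.5 times.

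Gfap was at 324, 357 and 377 CPM (lowest, median, highest) in vehicle brains and at 323, 401 and 458 CPM in Cmpd60 brains, so 4 treated brains lie above every vehicle brain and 1 below. Its log2 fold change was 0.14 (SE 0.069, unadjusted p = 0.0564 in edgeR). Aqp4 was at 145.1, 161 and 167 CPM in vehicle brains and 132, 144.4 and 178 CPM in Cmpd60 brains, where 4 treated brains lie below every vehicle brain and 2 above. That split gives a log2 fold change of −0.077 (SE 0.067), which was 0.029 without replicates 33, 34 and 37. S100b (−0.095, SE 0.099), Aldh1l1 (0.095, SE 0.063), Sox9 (0.077, SE 0.052) and Gja1 (0.016, SE 0.047) lay within 2 SE of 0, and S100b turned to 0.097 without the same 3 libraries.

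None of the 10 genes was called by edgeR in the 20-month brain, against 0.0205% of all genes tested, and 4 had an unadjusted p under 0.05, 3 higher and 1 lower, against 13.8%. DESeq2 called 1 (C4b) and limma-voom 0, and each gave 4 at an unadjusted p under 0.05. Over all 24438 genes DESeq2 called 429 and limma-voom 2. Groups did not overlap for 0 of the 10, against 0.958% of all genes.

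Among the 36 other astrocyte genes, 1 fell and 25 had negative log2 fold changes, with a median of −0.077 against 0.0072 over all genes. The gene that fell was Fabp7, from 32.3 ± 8.33 to 17.2 ± 2.78 CPM (mean ± SD, n = 6 each), log2 fold change −0.91, adjusted p = 0.0392 in edgeR's quasi-likelihood test. At an unadjusted p under 0.05 this list had 1 gene higher and 10 lower, against 13.8% of all genes in either direction. Of 11 pan-reactive genes 9 were positive, with 3 higher and 0 lower at an unadjusted p under 0.05 and a median of 0.16, and edgeR called none; the difference between these 2 lists was not tested. The gene of lowest p there was the oncostatin M receptor Osmr, also on the list of signalling regulators (0.31, unadjusted p = 0.00867 in edgeR).

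A1-type genes stayed near 0 (median log2 fold change 0.019, 0 of 11 at an unadjusted p under 0.05, Srgn lowest in p). A2-type genes had 2 higher and 2 lower of 12 at an unadjusted p under 0.05, against 13.8% of all genes. Ptgs2, the inducible cyclooxygenase, was of lowest p (0.37, unadjusted p = 0.00616 in edgeR). Against the same 13.8%, 1 of 8 end-foot genes was higher at an unadjusted p under 0.05, the caveolin Cav1 (0.20), and 2 of 13 signalling regulators were higher. Of 14 tested complement genes 4 were higher and 1 lower, with C4a of lowest p (0.56, 1.36 ± 0.283 to 2.02 ± 0.309 CPM). No gene of these lists was called by edgeR.

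**Figure D2:**
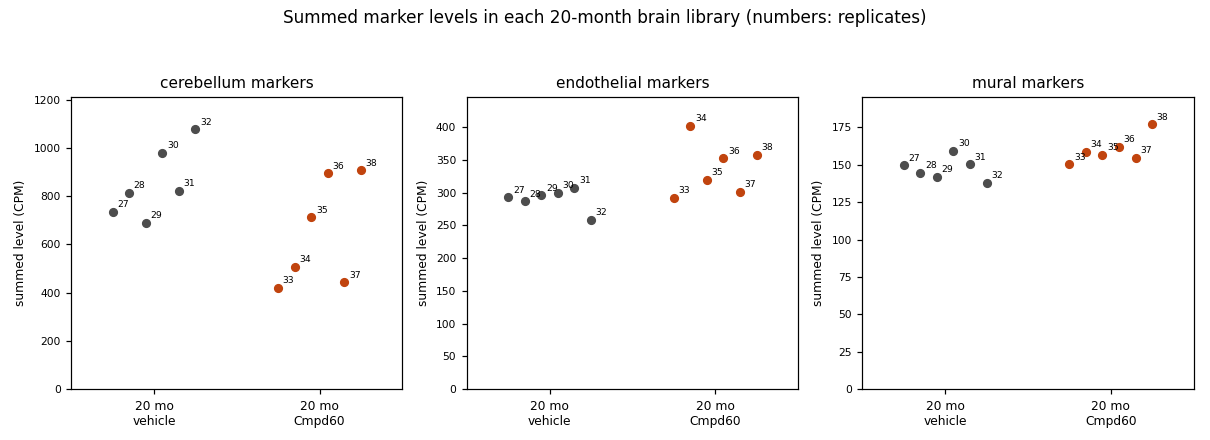
Summed levels (CPM, vertical axes from 0) of cerebellum, endothelial and mural markers in each 20-month brain library, with replicate numbers; grey is vehicle and orange Cmpd60. Cmpd60 replicates 33, 34 and 37 are at 419, 506 and 443 CPM of cerebellum markers, below every vehicle library.

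Markers of other brain regions and cells are given next. None was called by edgeR, 13.8% of all genes had an unadjusted p under 0.05, and the part of these markers in the results was not tested. All 6 cerebellum markers had negative log2 fold changes (median −0.44), 4 of them at an unadjusted p under 0.05, with Calb1 and Car8 the most abundant and Cbln3 of lowest p (−0.66). Their summed level was at 690 to 1078 CPM in vehicle brains (median 818) and at 419, 506, 713, 896, 443 and 908 CPM in Cmpd60 replicates 33 to 38. All 6 striatum markers were positive (median 0.14), with 0 at an unadjusted p under 0.05. Of 8 endothelial markers 7 were positive (median 0.21, 3 higher at an unadjusted p under 0.05), and their sum was at 258 to 307 CPM in vehicle and 292 to 402 CPM in Cmpd60 brains, with Flt1 the most abundant. Of 5 mural markers 4 were positive (median 0.18), with sums of 138 to 159 and 150.3 to 177 CPM and Rgs5 the most abundant.

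Of the remaining marker lists, microglia markers had a median of 0.0025 with 1 of 10 higher at an unadjusted p under 0.05 (Trem2), against 13.8% of all genes. Of 10 neuron markers 4 were higher and 1 lower (median 0.059), of 10 oligodendrocyte markers 0 and 1 (median −0.064), and of 4 precursor markers 1 and 1 (median 0.054). Choroid plexus (median 0.086), ependymal (−0.060) and the 3 matched blood markers (0.17) had 0, 1 and 0 genes at an unadjusted p under 0.05. No marker of any of these lists was called by edgeR. Without replicates 33, 34 and 37, C4b had a log2 fold change of 0.53 and was called by edgeR.

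In the younger littermates the gene that stands out is Aqp4. Cmpd60 brains held 1.41 times the Aqp4 of vehicle brains, and Gja1, the connexin found in the same end-feet, 1.16 times. Slc1a2 was 1.16 times as high, owing to 2 of the 5 treated brains. The reactive genes Gfap, Serpina3n and C4b differed by less than their spread.

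Aqp4 was at 122, 118, 135, 119 and 133 CPM in littermate vehicle brains and at 196, 181, 189, 174 and 145.4 CPM in littermate Cmpd60 brains. Every treated brain lies above every vehicle brain, and the lowest, s158 at 145.4 CPM, is nearest to them. Its log2 fold change was 0.50 (SE 0.098), unadjusted p = 2.54e-05 and adjusted p = 0.295 in edgeR's quasi-likelihood test, at rank 2 of 23273 genes by p. DESeq2 gave an adjusted p of 0.00851, and the range over the 10 other settings was 0.00851 to 1. Gja1 was at 254, 238, 226, 202 and 179 CPM in vehicle and 215, 277, 291, 263 and 234 CPM in Cmpd60 brains, so the groups overlap and 3 of 5 treated brains lie above every vehicle brain. Its log2 fold change was 0.22 (SE 0.10, unadjusted p = 0.0405 in edgeR).

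Slc1a2 was at 2382, 2111, 2092, 1872 and 2029.5 CPM in vehicle and 2101, 2888, 3051, 2078 and 2071 CPM in Cmpd60 brains, a log2 fold change of 0.22 (SE 0.11, unadjusted p = 0.0540 in edgeR). Libraries s153 and s156 are the high ones, and the other 3 lie within the vehicle range. Gfap was at 220.4, 354, 385, 369.5 and 292 CPM in Cmpd60 brains, 3 above and 1 below every vehicle brain, with a log2 fold change of 0.077 (SE 0.12). C4b ran from 32.2 CPM in s152 to 172 CPM in s153 among the treated brains, and its log2 fold change of −0.15 (SE 0.37) is far inside that spread. For S100b the value was 0.18 (SE 0.12), for Serpina3n 0.070 (SE 0.20), for Aldh1l1 0.023 (SE 0.15), for Sox9 −0.011 (SE 0.23) and for Slc1a3 0.0037 (SE 0.082).

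No gene at all was called by edgeR in the littermate comparison: 0 of the 10, against 0% of all genes tested. At an unadjusted p under 0.05 there were 2 of the 10 (Aqp4 and Gja1), against 3.69% of all genes, and groups did not overlap for 1 (Aqp4), against 0.494%. DESeq2 called 1 (Aqp4) and limma-voom 0, with 2 and 1 at an unadjusted p under 0.05. Over all 23273 genes DESeq2 called 4 and limma-voom 0. Of the listed genes none was called by edgeR either, and of the astrocyte, complement and signalling lists the complement inhibitor Serping1 (0.80, also on the A1-type list) and the regulator Smad3 (0.30) were higher at an unadjusted p under 0.05. Medians were −0.0090 for other astrocyte genes, −0.044 for pan-reactive, −0.10 for A1-type, 0.13 for A2-type, 0.086 for end-foot, −0.011 for complement and 0.052 for signalling genes, against 0.022 over all genes.

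All 6 striatum markers were lower in the treated littermates (median log2 fold change −0.23, 1 at an unadjusted p under 0.05), with sums of 496, 809.9, 576, 445 and 546 CPM in vehicle and 397, 490.0, 429, 698 and 429 CPM in Cmpd60 brains and Ppp1r1b the most abundant. Endothelial markers were positive for 7 of 8 (median 0.11), with sums of 321, 289, 291, 282 and 163 CPM in vehicle brains, the last in s155, and 277, 332, 312, 285 and 279 CPM in Cmpd60 brains. The 3 matched blood markers, of which Hba-a1 is the most abundant (0.89, unadjusted p = 0.0406 in edgeR), had sums of 324, 84.6, 114, 86.1 and 30.9 CPM in vehicle and 216, 480, 145.3, 203 and 139.3 CPM in Cmpd60 brains. Of 10 neuron markers 2 were higher at an unadjusted p under 0.05 (median 0.044), against 3.69% of all genes. The part of these lists in the Aqp4 difference was not tested.

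In APPSWE brains Aqp4 and Gja1 again had the lowest p of the 10 genes in edgeR, at ranks 62 and 1102 of all genes. Aqp4 was 1.28 times and Gja1 1.20 times as high with Cmpd60 as with vehicle, while none of the other 8 genes had an unadjusted p under 0.05 in edgeR. The reactive genes Gfap, Serpina3n and C4b were slightly lower, and each turned in sign under at least 1 other setting.

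Aqp4 was at 154.6, 109, 126, 138 and 125 CPM in APPSWE vehicle brains and at 187, 162, 157 and 165 CPM in APPSWE Cmpd60 brains. The groups do not overlap, although the highest vehicle brain, s140 at 154.6 CPM, nearly meets the lowest treated one. This is a log2 fold change of 0.36 (SE 0.10), unadjusted p = 0.00181 and adjusted p = 0.444 in edgeR's quasi-likelihood test. Gja1 was at 248, 205, 209, 232 and 188 CPM in vehicle and 269, 233, 275 and 262 CPM in Cmpd60 brains, where 3 of 4 treated brains lie above every vehicle brain, with a log2 fold change of 0.26 (SE 0.11, unadjusted p = 0.0215, adjusted p = 0.452 in edgeR). Library s139, whose treatment is in doubt, was at 160.4 CPM of Aqp4 and 245 CPM of Gja1, within the range of the treated APPSWE brains for both genes and within that of the vehicle brains for Gja1.

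C4b was at 82.1, 88.6, 66.1, 118 and 30.0 CPM in APPSWE vehicle and 55.7, 44.2, 86.4 and 90.3 CPM in APPSWE Cmpd60 brains, fully overlapping, with a log2 fold change of −0.16 (SE 0.40). Serpina3n was at 25.9, 19.3, 18.7, 29.6 and 13.9 CPM in vehicle and 17.5, 19.0, 21.1 and 21.9 CPM in Cmpd60 brains (−0.11, SE 0.21). Both lowest vehicle values are from s146. Log2 fold changes of the rest were 0.17 for Slc1a2, −0.032 for Gfap, −0.080 for Slc1a3, −0.13 for Sox9, −0.20 for Aldh1l1 and −0.21 for S100b, with unadjusted p from 0.113 to 0.796 in edgeR.

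In APPSWE brains edgeR called 0 of the 10 genes, against 0% of all genes, and 2 had an unadjusted p under 0.05, against 9.53%. Groups did not overlap for 1 (Aqp4), against 2.34% of all genes. DESeq2 and limma-voom called 0, with 2 and 1 at an unadjusted p under 0.05. Among the lists, the proteoglycan Agrn was higher (97.3 ± 15.2 to 125 ± 14.9 CPM, mean ± SD, n = 5 and 4, log2 fold change 0.36, unadjusted p = 0.00875 in edgeR), and all 8 end-foot genes were positive (median 0.11). The bicarbonate transporter Slc4a4 led the other astrocyte genes (0.21, unadjusted p = 0.0260 in edgeR), of which 3 were higher and 0 lower. No listed gene was called by edgeR.

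No marker of other cells was called by edgeR in this comparison either, and their part in it was not tested. At an unadjusted p under 0.05 there were 9.53% of all genes. Of 6 choroid plexus markers 5 were lower (median log2 fold change −0.47), led by Ttr, the most abundant (−1.13, unadjusted p = 0.000470 in edgeR), with sums of 914, 398, 973, 635 and 1546 CPM in vehicle and 576, 415, 371 and 367 CPM in Cmpd60 brains. Of 10 oligodendrocyte markers 9 were lower (median −0.14, 3 at an unadjusted p under 0.05), with sums of 7721, 7915, 7181, 7883 and 7088 CPM in vehicle and 6469.6, 6067, 7818 and 6125 CPM in Cmpd60 brains and Mbp the most abundant. All 5 ependymal markers were lower (median −0.34, 0 at an unadjusted p under 0.05), with sums of 34.2, 20.9, 28.1, 26.2 and 42.0 CPM in vehicle and 30.4, 22.2, 20.5 and 25.7 CPM in Cmpd60 brains. Of 6 striatum markers 4 were positive (median 0.21, 2 at an unadjusted p under 0.05), with sums of 549.7, 547, 609, 417 and 455 CPM in vehicle and 507, 608, 580 and 507 CPM in Cmpd60 brains.

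**Figure D3:**
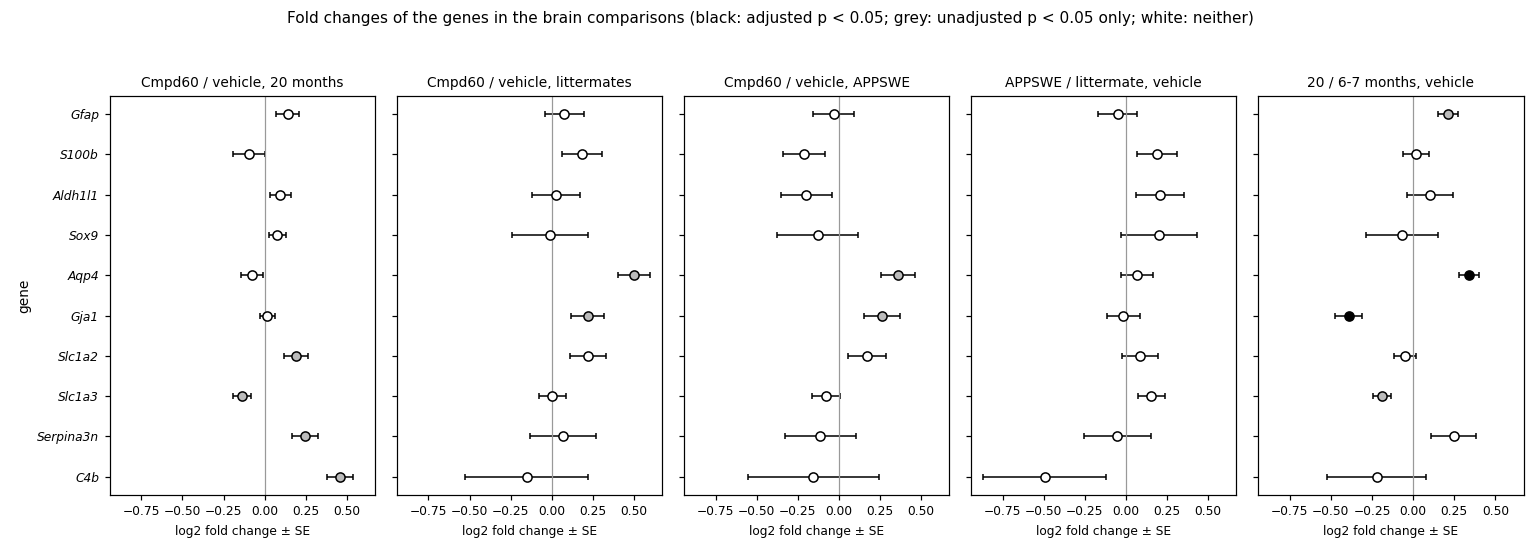
Log2 fold changes ± SE (horizontal axes) of the 10 genes in 5 brain comparisons; black points passed an adjusted p of 0.05 in edgeR, grey ones had an unadjusted p under 0.05 alone, white ones neither. Aqp4 is at −0.077 in the 20-month brain and at 0.50 and 0.36 in the younger littermate and APPSWE brains.

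The effect of Cmpd60 on Aqp4 was compared directly between the cohorts, since a difference in threshold alone shows nothing. The log2 fold change in the 20-month brain minus that in littermate brain was −0.58 (SE 0.11), unadjusted p = 1.59e-05 and adjusted p = 0.201 in edgeR's quasi-likelihood test, rank 2 of 25320 genes by p. DESeq2 gave an adjusted p of 0.0156, the range over the 6 other settings was 0.0156 to 0.8004, and edgeR did not call it with any 1 of the 22 libraries left out (0.0706 to 0.708). The 4 groups place this in context: treated littermates averaged 177 ± 19.6 CPM (mean ± SD, n = 5) and littermate vehicles 126 ± 8.01 CPM, while 20-month vehicles averaged 159 ± 7.99 CPM and treated 20-month brains 152 ± 18.0 CPM (n = 6 each). The same 5 littermate vehicle brains enter this difference, the littermate Cmpd60 comparison and the comparison of vehicle brains between the cohorts. The Aqp4 results of these comparisons are thus not independent. Age cannot be told apart from other differences between the cohorts here either.

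For C4b the difference between the cohorts was 0.60 but with an SE of 0.43 (unadjusted p = 0.174 in edgeR), since the younger libraries spread so widely. Gja1 (−0.21), S100b (−0.29) and Slc1a3 (−0.15) had unadjusted p from 0.0810 to 0.0942 in edgeR. In all, 0 of the 10 were called by edgeR, against 0% of all genes, and 1 (Aqp4) had an unadjusted p under 0.05, against 7.35%, while DESeq2 called 1 and limma-voom 0, each with 1 at an unadjusted p under 0.05. Over all 25320 genes DESeq2 called 7 and limma-voom 0. Among the lists 27 of 36 other astrocyte genes were negative, 4 of them at an unadjusted p under 0.05, led by the zinc transporter Slc39a12 (−0.46, unadjusted p = 0.00715 in edgeR). All 6 cerebellum markers were negative (median −0.48) and all 6 striatum markers positive (0.33), and their part was not tested.

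Genotype and treatment were also crossed, to ask whether Cmpd60 acts differently in APPSWE and littermate brains. Of the 10 genes 1, S100b, had an unadjusted p under 0.05, with a difference of −0.40 on the log2 scale (SE 0.18, unadjusted p = 0.0344, adjusted p = 0.953 in edgeR's quasi-likelihood test). S100b was at 177, 169.6, 198, 207 and 157 CPM in littermate vehicle and 243, 201, 166, 246 and 175 CPM in littermate Cmpd60 brains, but at 268, 164, 195, 191 and 211 CPM in APPSWE vehicle and 191, 171, 188 and 162 CPM in APPSWE Cmpd60 brains. Treated littermates s152 and s157 and APPSWE vehicle s140 are the high libraries behind it. For Aqp4 the difference was −0.14 (SE 0.14, unadjusted p = 0.333 in edgeR), so no difference between the genotypes in its response was detected at this spread. The count called by edgeR was 0 of 10, against 0% of all genes, with 1 at an unadjusted p under 0.05, against 5.11%, and DESeq2 and limma-voom also called 0 with 1 each.

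Between the genotypes edgeR called none of these genes in vehicle brains, which does not show that their levels are equal. In vehicle brains the log2 fold changes between APPSWE and littermate mice were −0.051 for Gfap, −0.052 for Serpina3n, 0.067 for Aqp4, 0.084 for Slc1a2 and −0.016 for Gja1, each smaller than its SE. C4b was lowest, at 77.1 ± 32.4 CPM in APPSWE (mean ± SD, n = 5) against 109 ± 55.4 CPM in littermate vehicle brains, with full overlap and a log2 fold change of −0.49 (SE 0.37, unadjusted p = 0.199 in edgeR). Slc1a3 came nearest to a difference. It was at 699.8, 584, 655, 639 and 802 CPM in APPSWE and 622, 609, 615, 616 and 593 CPM in littermate vehicle brains, so 4 of 5 APPSWE brains lie above every littermate brain and 1 below, with a log2 fold change of 0.15 (SE 0.082, unadjusted p = 0.0712 in edgeR). Aldh1l1 (0.21, SE 0.15), Sox9 (0.20, SE 0.23) and S100b (0.19, SE 0.12) were higher in the APPSWE group, within their spread. Of the 10 genes all but Slc1a3, C4b and Sox9 turned in sign under at least 1 other setting.

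Of the 10 genes 0 were called by edgeR between the genotypes in vehicle brains, against 0.00859% of all genes, 0 had an unadjusted p under 0.05, against 8.74%, and groups overlapped for all 10, where 0.627% of all genes did not. DESeq2 and limma-voom called 0, with 0 and 1 at an unadjusted p under 0.05. In Cmpd60-treated brains the values were of the same kind: C4b −0.50 (SE 0.40), Serpina3n −0.24 (SE 0.22), S100b −0.21 (SE 0.13) and Gfap −0.16 (SE 0.12), and the other 6 between −0.074 and 0.083. There edgeR called 0 of 10, against 0% of all genes, with 0 at an unadjusted p under 0.05, against 1.36%, and 0 without overlap, against 0.902%, and DESeq2 and limma-voom called 0 with 0 at an unadjusted p under 0.05. Both genotype comparisons share their groups with the Cmpd60 comparisons of this cohort, so the 4 are not independent.

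No listed gene was called by edgeR between the genotypes. In vehicle brains the neurotensin receptor Ntsr2 had the lowest p of the other astrocyte genes (83.6 ± 7.09 CPM in littermate and 67.6 ± 6.93 CPM in APPSWE brains, mean ± SD, n = 5 each, log2 fold change −0.30, unadjusted p = 0.0111 in edgeR), and its interaction with Cmpd60 was 0.39 (unadjusted p = 0.0210 in edgeR). Of the microglia markers Ctss, a lysosomal protease, was lowest in p (60.6 ± 13.1 against 43.9 ± 5.00 CPM, −0.46, unadjusted p = 0.00305 in edgeR), 7 of 10 were negative, and the median was −0.18. Among the complement genes it was Cd59a (−0.64, unadjusted p = 0.0501 in edgeR).

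The same genes were read in the kidney and heart of the 20-month mice, organs without astrocytes. In kidney the water channel Aqp4, found in the collecting duct and proximal tubule, was 1.78 times as high with Cmpd60, and the folate enzyme Aldh1l1 1.29 times. In heart Serpina3n rose 2.06 times and Gja1 1.35 times, and C4b was 1.40 times as high.

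With the kidney groups named by the titles, 352 of 425 genes with an unadjusted p under 0.05 in both heart and kidney in edgeR had the same direction in both, and so had 295 of 374 genes for the 20-month brain and kidney, beside 348 of 470 for that brain and heart. Over all genes tested in both organs, whatever their p, the same direction was shared by 55.5% of 18003 (heart and kidney), 53.3% of 19083 (brain and kidney) and 53.0% of 18509 (brain and heart). With the tag in place of the titles, the 352 and the 295 would be genes of opposite directions. Against the Cmpd60 effects in the younger cohort the counts were 66 of 153 (APPSWE brain and kidney) and 32 of 74 (littermate brain and kidney), and 47.6% and 48.2% over all 18813 genes tested in both. The 20-month organs share mice but no libraries, and this count was chosen after seeing the data.

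Among the treated kidneys replicates 54 and 55 stand apart. Their summed complement genes are at 2316 and 2453 CPM, against 1050.4 to 1299 CPM in the other treated and 827 to 1687 CPM in the vehicle kidneys, and their summed pan-reactive genes at 742 and 1188 CPM, against 399 to 621 and 339.6 to 553 CPM. The same 2 are the lowest treated kidneys in Aqp4 (93.4 and 78.1 CPM) and in Aldh1l1 (591 and 583 CPM), and the part of what sets them apart was not tested.

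Kidney Aqp4 was at 53.2, 64.3, 63.8, 65.8 and 99.5 CPM in vehicle and at 78.1, 132 and 153 CPM (lowest, median, highest) in Cmpd60 mice. Of the treated kidneys 4 of 6 lie above every vehicle kidney, and vehicle replicate 49 at 99.5 CPM makes the overlap. On the log2 scale the difference was 0.83 (SE 0.19), adjusted p = 0.0950 in edgeR's quasi-likelihood test (0.00279 to 0.0910 over the other settings), and it was called without treated replicate 55 (0.94, adjusted p = 0.0267 in edgeR). Aldh1l1 was at 467, 604, 678, 494 and 670.2 CPM in vehicle and 583, 775 and 929 CPM in Cmpd60 kidneys, with 4 of 6 treated kidneys above every vehicle kidney and a log2 fold change of 0.37 (SE 0.15, unadjusted p = 0.0239, adjusted p = 0.362 in edgeR). The other 8 genes had unadjusted p from 0.127 (Serpina3n, log2 fold change 0.50, SE 0.31) to 0.696 (S100b) in edgeR, and Gfap lay near the floor in both groups. In kidney 0 of the 10 were called by edgeR, against 0.300% of all genes, 2 had an unadjusted p under 0.05, against 11.3%, and groups overlapped for all 10, where 2.30% of all genes did not. DESeq2 called 1 (Aqp4) and limma-voom 0, with 2 and 3 at an unadjusted p under 0.05. Over all 20698 genes DESeq2 called 429 and limma-voom 70.

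The called genes of the lists in kidney were Pla2g7, a phospholipase, from 24.7 ± 2.59 (mean ± SD, n = 5) to 41.8 ± 3.43 CPM (n = 6; log2 fold change 0.76, adjusted p = 0.00175 in edgeR's quasi-likelihood test), the carrier protein Ttr, which fell (−1.43, adjusted p = 0.00679 in edgeR), and Rarres2, the secreted protein chemerin, which rose (0.91, adjusted p = 0.0320 in edgeR). These are listed as astrocyte, choroid plexus and ependymal genes of the brain and mark no such cells in kidney.

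Heart Serpina3n was at 40.8, 50.3 and 69.2 CPM (lowest, median, highest) in vehicle and at 83.7, 173, 73.4, 82.8 and 123 CPM in Cmpd60 mice. Every treated heart lies above every vehicle heart, and replicate 69 at 173 CPM is far above the rest. Between the groups the log2 fold change was 1.05 (SE 0.19), adjusted p = 0.0161 in edgeR's quasi-likelihood test (0.00129 to 0.0203 over the other settings). Without replicate 72 the call was lost (0.99, adjusted p = 0.0631 in edgeR).

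Heart Gja1 was at 390.0, 418 and 453 CPM (lowest, median, highest) in vehicle and at 612, 697, 516, 482 and 509 CPM in Cmpd60 mice, again with no overlap. Its log2 fold change was 0.43 (SE 0.085), adjusted p = 0.0245 in edgeR's quasi-likelihood test (0.000257 to 0.0261 over the other settings). It was no longer called without replicate 72 (0.46, adjusted p = 0.0545), vehicle replicate 64 (adjusted p = 0.0514) or vehicle replicate 67 (adjusted p = 0.0552, all in edgeR). C4b was at 90.8, 101 and 143 CPM in vehicle and 139.97, 149.9, 122, 173 and 176 CPM in Cmpd60 hearts, 3 of 5 above every vehicle heart (0.48, SE 0.12, adjusted p = 0.0576 in edgeR, 0.00382 to 0.0608 over the other settings), and it was called without replicate 70 (0.55, adjusted p = 0.0317 in edgeR) or vehicle replicate 62 (0.58, adjusted p = 0.0182 in edgeR).

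Slc1a2, scarce in heart, was lower with Cmpd60, at 1.07, 1.48 and 2.11 CPM (lowest, median, highest) in vehicle and 1.05, 1.08, 1.06, 1.20 and 0.977 CPM in Cmpd60 hearts, with 3 of 5 treated hearts below every vehicle heart (log2 fold change −0.52, SE 0.24, unadjusted p = 0.0433 in edgeR). The remaining 6 had unadjusted p from 0.295 (S100b) to 0.928 (Gfap) in edgeR.

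In heart 2 of the 10 genes were called by edgeR, against 1.18% of all genes, 4 had an unadjusted p under 0.05, against 13.5%, and groups did not overlap for 2 (Gja1 and Serpina3n), against 2.69%. DESeq2 and limma-voom each called 3, adding C4b, where they called 746 and 245 of all 19452 genes. Among the lists Lcn2, an iron-carrier protein of the acute response, rose from 4.17 ± 0.831 (mean ± SD, n = 6) to 20.7 ± 14.1 CPM (n = 5; log2 fold change 2.31, adjusted p = 0.0122 in edgeR's quasi-likelihood test), Socs3, the feedback inhibitor of JAK-STAT signalling, from 6.57 ± 1.02 to 12.2 ± 3.44 CPM (0.90, adjusted p = 0.0161 in edgeR), and Mal, listed as a myelin gene, from 30.1 ± 1.62 to 39.7 ± 2.29 CPM (0.40, adjusted p = 0.0124 in edgeR). Of 8 endothelial markers 7 were positive (median 0.13, 1 at an unadjusted p under 0.05), with sums of 1037 to 1141 CPM in vehicle (median 1050.4) and 1057, 1409, 1169, 1165 and 1136 CPM in Cmpd60 hearts and Kdr the most abundant. Their part in the heart results was not tested.

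**Figure D4:**
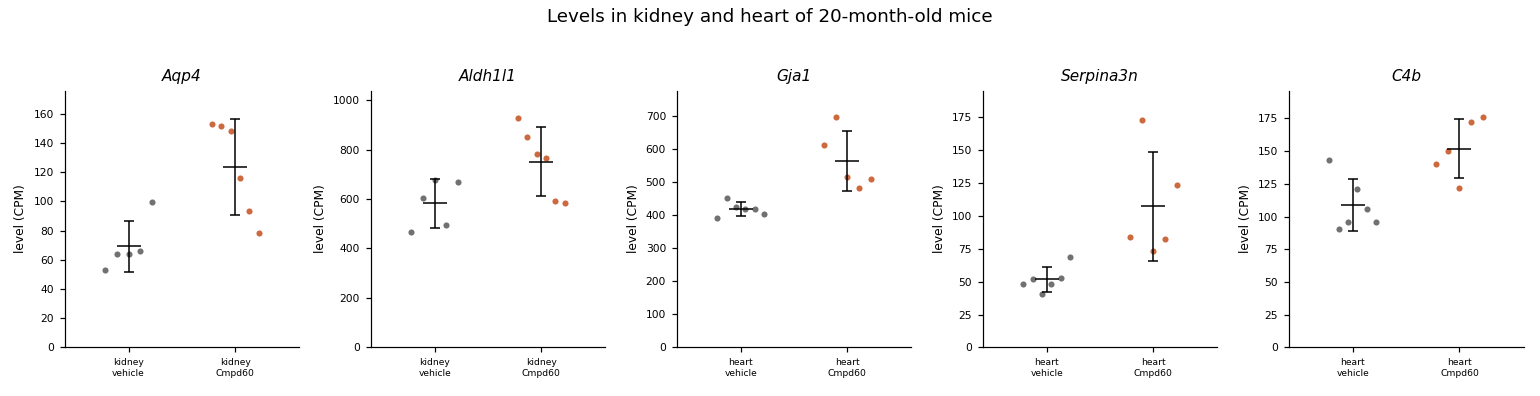
Levels (CPM, vertical axes from 0) of Aqp4 and Aldh1l1 in kidney and of Gja1, Serpina3n and C4b in heart of 20-month mice; points are libraries, grey for vehicle and orange for Cmpd60, and bars are the mean ± SD. Serpina3n is at 40.8 to 69.2 CPM in vehicle hearts and at 73.4 to 173 CPM in Cmpd60 hearts.

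The genes whose levels run most like Gfap, Serpina3n and C4b across the brain libraries were sought among 12054 genes with a mean of at least 5 CPM, by the root mean square difference of centred log2 CPM over the 32 libraries. For Gfap the nearest were Atp6v0b (0.156), Rap1b (0.162) and Gnptg (0.164), where Gfap's own spread is 0.230. Nearest to Serpina3n were Clk3 (0.206), Ube2b (0.218) and A130022J15Rik (0.218), against a spread of 0.315. C4b had no close neighbour: Zbtb48 (0.457), Snrnp48 (0.472) and Gpaa1 (0.483) differ from it by more than Serpina3n varies at all, against its own spread of 0.661. None of these 9 genes is on an astrocyte list, and genes that vary little come out near any gene that varies little.

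Reactive astrocyte genes are known targets of the STAT factors, which bind DNA at sites of the form TTCNNNGAA, so the 250 bases before each gene's start were searched for those letters on both strands. Of the 10 genes 7 were matched among the RefSeq stretches used here (build GRCm38.p6), and Aqp4, C4b and Sox9 were not. The letters occur in 1 of the 7, Slc1a3, and in 2306 of all 32851 stretches of that length (7.02%). A match describes the letters and is not a bound site. Bases further upstream were not searched, so a gene without a match here may hold the letters there. The stretch is printed because it is the sole match among these genes. It lies at chr15:8710808-8711057 on the minus strand and is written 5′ to 3′ with the match in capitals, 87 bases before the gene's start.
Slc1a3: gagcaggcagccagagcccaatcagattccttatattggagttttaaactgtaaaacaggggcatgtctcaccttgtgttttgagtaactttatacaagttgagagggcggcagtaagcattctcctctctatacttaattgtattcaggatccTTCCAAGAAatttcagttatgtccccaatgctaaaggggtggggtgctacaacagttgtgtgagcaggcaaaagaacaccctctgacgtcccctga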

How the data were processed

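Counts of reads per Ensembl gene were used as deposited by the authors, whose notes name FastQC, Trimmomatic 0.32, HISAT2 2.1.0 and HTSeq 0.11.0; the genome build is not given in the sources used here. Libraries were stranded and selected by poly-A. The 5 summary lines of each table, 15.4 to 22.1% of its counts, were removed. A symbol was matched for 32651 of 54232 genes (60.2%), and exon length came from GENCODE vM1.

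Each comparison used edgeR 4.0.16 in R 4.3.3 (scaling by the trimmed mean of M-values, quasi-likelihood test, a gene entered the fit when 3 or more of its libraries held over 2 counts, Benjamini-Hochberg over all genes tested, called at an adjusted p under 0.05), beside DESeq2 1.42.0 and limma 3.58.1 (voom). Genes tested numbered 24438 in the 20-month brain, 23273 in the younger cohort, 22949 between the cohorts, 25320 for the difference in effect, 20698 in kidney and 19452 in heart. The pipeline was tested on simulated data with the spread of the real libraries. Of genes given a 1.5 times change there, edgeR called 76.1% in the 20-month brain and 11.9% in APPSWE brain. The share was 38.8% between the cohorts, 41.8% in kidney and 62.7% in heart. Likeness used genes with a mean of at least 5 CPM.

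The 10 genes and the lists were chosen with earlier results of these data known. The lists hold other astrocyte, pan-reactive, A1-type, A2-type, end-foot (Aqp4 anchoring), complement and reactive signalling genes, and markers of microglia, oligodendrocytes, their precursors, neurons, endothelial and mural cells, choroid plexus, ependyma, blood, cerebellum and striatum; Hbb-bs and Hbb-bt had no match. From each list and comparison the called genes are named if at most 4, otherwise the 2 highest and 2 lowest by log2 fold change, and where none was called at most the gene of lowest p.

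Alternatives tried were the other 2 tools, DESeq2's size factors, no filter, a stricter filter, each library left out, other placings of s139, the compared groups alone, and 5 settings chosen after seeing the data. Upstream sequences are from RefSeq, build GRCm38.p6.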

Additional observations from a re-analysis of the deposited data

Results flagged for a closer look

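In 7 of 120 groups tested (5.83%) 1 library lay far from the others of its group, against about 1 in 20 expected by chance, and 4 of the 7 concern the depth of a library. Heart vehicle replicate 67 has 43.8 M gene counts (the others 24.2 to 28.3 M), APPSWE vehicle s140 has 55.9 M (26.95 to 28.4 M), APPSWE Cmpd60 s143 has 55.8 M (25.4 to 27.8 M) and littermate vehicle s150 has 37.8 M (25.1 to 27.5 M). Depth is removed by the scaling to CPM.

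The remaining 3 of the 7 concern 1 gene each. Heart Cmpd60 replicate 68 has 2.43 CPM of S100b, above the 1.056 to 1.42 CPM of the others. Kidney vehicle replicate 49 has 99.5 CPM of Aqp4, above 53.2 to 65.8 CPM, and it is the library that makes the kidney groups overlap for that gene. APPSWE vehicle s140, named above for its depth, has 32.6 CPM of Sox9, below 43.0 to 45.9 CPM, and is also among the libraries with the fewest genes detected.

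Brain s139, an APPSWE mouse whose labels say vehicle and whose heading in the study's table says compound, enters no comparison. It lies above all 5 APPSWE vehicle brains for Aqp4 (160.4 CPM, against 109 to 154.6), Aldh1l1 (80.1 CPM, against 57.3 to 78.2) and Sox9 (50.4 CPM, against 32.6 to 45.9). Its Aqp4 value lies within the 157 to 187 CPM of the APPSWE Cmpd60 brains, while its Aldh1l1 and Sox9 values lie above all 4 of those as well. With 1 library these differences were not tested.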

How the results depend on the processing

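Every comparison of the 10 genes was repeated with DESeq2, with limma-voom, with DESeq2's size factors in edgeR, without a filter on low counts, with at least 10 counts in 3 libraries, and with each library left out in turn. The younger cohort was also fitted with s139 as a vehicle and as a Cmpd60 mouse, with the compared groups alone, and with a covariate for how many genes each library detects. A further 5 settings were chosen after seeing the data: the same covariate between the cohorts and for the difference in Cmpd60 effect between them (2 settings), leaving out the 20-month Cmpd60 brains lowest in cerebellum markers (33, 34 and 37), the littermate vehicle brains with the fewest genes detected (s154 and s155), or the 5 libraries of the younger cohort with the fewest genes detected (s140, replicate 141, s146, s152 and s155). Leaving out the 3 brains low in cerebellum markers and leaving out the 5 libraries were chosen after the outcomes of the first settings were known. Between the cohorts the vehicle groups do not overlap in genes detected, so there the covariate cannot be told apart from the cohort. No paired analysis was possible because each replicate number occurs once and no label ties a treated mouse to a vehicle mouse.

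Of 2029 values under another setting, 1876 kept their direction and their side of the threshold, 28 moved past it, 5 moved back and 120 turned in sign. No result with an unadjusted p under 0.05 in edgeR (20 of 100) turned in sign in any setting, and 44 of the 100 did somewhere. The 100 mean levels moved by less than 1 SD when total gene counts replaced the scaling by the trimmed mean of M-values. The median log2 fold change of all genes between the cohorts was 0.077, and 0.23 in limma-voom, 0.21 without a filter and −0.17 with a covariate for genes detected. In APPSWE brain it was 0.032, and 0.15 in limma-voom, and no other median moved by over 0.1 in a setting that leaves out no single library.

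Numbers of the 10 genes called depend on the tool. In the 20-month brain, where edgeR called 0 (4 at an unadjusted p under 0.05), 1 was called by DESeq2, 1 without a filter and 1 without replicates 33, 34 and 37, and between 0 and 1 with a library left out (1 without 29, 36 or 37). Between the cohorts edgeR called 2, DESeq2 and limma-voom 4 each, the covariate 1, the fit without s154 and s155 5, and leaving out a library gave 2 to 4 (4 without s155). DESeq2 called 1 in littermate brain and 1 for the difference in Cmpd60 effect between the cohorts, where edgeR called 0 (2 and 1 at an unadjusted p under 0.05). In kidney DESeq2 and the fit without a filter called 1 each, against 0 in edgeR (2 at an unadjusted p under 0.05), and leaving out a library gave 0 to 1 (1 without 55). In heart the count was 2, and 3 each with DESeq2, limma-voom and no filter, and 0 to 3 with a library left out (0 without 72, 1 without 64 or 67, 3 without 62 or 70). Calls over all genes moved too. In the 20-month brain edgeR called 5 of all genes, DESeq2 429 and the fit without a filter 102. In kidney these were 62, 429 and 94, and in heart 229, 746 and 298. Between the cohorts edgeR called 1552 and DESeq2 2611. DESeq2, unlike edgeR, adjusts over the genes left by its own filter on mean counts. The part of that filter in these counts was not tested, and neither was any other cause.

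Some log2 fold changes, as the log2 fold change of Slc1a3: littermate brain Cmpd60 versus vehicle, turned in sign, and the cause was not tested. With DESeq2 the values were for Cmpd60 in littermate brain Slc1a3 −0.0029, and for the interaction C4b 0.0012. With limma-voom they were for Cmpd60 in littermate brain Slc1a3 −0.010, and for genotype under vehicle Gja1 0.0033, and for the cohorts C4b 0.020, Sox9 0.0051, and for heart Slc1a3 0.013. With DESeq2's size factors in edgeR the value was for Cmpd60 in littermate brain Slc1a3 −0.0029, and with at least 10 counts in 3 libraries for Cmpd60 in littermate brain Slc1a3 −0.0012. With s139 as vehicle the value was for genotype under vehicle Gja1 0.014, and with s139 as Cmpd60, for genotype under Cmpd60 Aldh1l1 0.087, and for the interaction C4b 0.091. Without replicates 33, 34 and 37 the values were for Cmpd60 in the 20-month brain Aqp4 0.029, S100b 0.097. With genes detected as a covariate they were for Cmpd60 in littermate brain Aldh1l1 −0.034, and for genotype under vehicle Gja1 0.024, and for the interaction C4b 0.041, and for the cohorts Aldh1l1 −0.35, S100b −0.11, Serpina3n −0.14. Without s154 and s155 the value was for the cohorts Aldh1l1 −0.035. Without the 5 libraries with the fewest genes they were for Cmpd60 in APPSWE brain Gfap 0.083, Slc1a3 0.020, and for Cmpd60 in littermate brain Aldh1l1 −0.074, Serpina3n −0.028, C4b 0.24, and for genotype under vehicle Aldh1l1 −0.027, S100b −0.033, and for genotype under Cmpd60 Slc1a2 −0.0033, Aldh1l1 0.011, Gja1 −0.051, Sox9 −0.11, and for the interaction Slc1a3 0.012, Aldh1l1 0.038.

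Leaving out 1 library at a time turned these log2 fold changes, given as the lowest to the highest value. The values were for Cmpd60 in the 20-month brain Gja1 −0.0068 to 0.032, and for Cmpd60 in APPSWE brain Gfap −0.11 to 0.027, Serpina3n −0.24 to 0.028, C4b −0.36 to 0.050. They were for Cmpd60 in littermate brain Slc1a3 −0.027 to 0.045, Aldh1l1 −0.11 to 0.095, C4b −0.45 to 0.073, Sox9 −0.21 to 0.17. Between the genotypes they were for genotype under vehicle Gfap −0.12 to 0.023, Aqp4 −0.0063 to 0.12, Slc1a2 −0.018 to 0.14, Gja1 −0.080 to 0.043, Serpina3n −0.20 to 0.066. They were also for genotype under Cmpd60 Slc1a2 −0.026 to 0.12, Aldh1l1 −0.067 to 0.048, Gja1 −0.036 to 0.075, Sox9 −0.075 to 0.21, and for the interaction Slc1a2 −0.10 to 0.051, Gja1 −0.015 to 0.11, C4b −0.23 to 0.29, Sox9 −0.30 to 0.082. Against the younger cohort they were for the cohorts Aldh1l1 −0.033 to 0.17, S100b −0.036 to 0.059, Sox9 −0.27 to 0.11, and for the difference in Cmpd60 effect between the cohorts Gfap −0.060 to 0.14, Slc1a2 −0.099 to 0.074, Aldh1l1 −0.0054 to 0.22, Sox9 −0.096 to 0.30. Outside the brain they were for kidney S100b −0.072 to 1.06, Gja1 −0.018 to 0.16, C4b −0.040 to 0.22, and for heart Gfap −0.88 to 0.25, Slc1a3 −0.39 to 0.035, Aldh1l1 −0.21 to 0.043.

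Some planned values could not be given: DESeq2 gave no adjusted p for Gfap and S100b in kidney and for Gfap in heart, and Gfap in kidney was not tested at 10 counts in 3 libraries. Depth limits Gfap and S100b in kidney and Gfap in heart, which lie near the floor of 3 counts (at most 0.124 CPM), and it does not limit the brain levels, the lowest of which is Serpina3n at 13.9 CPM in s146. The libraries of the younger cohort vary more (biological coefficient of variation 0.727, against 0.114 in the 20-month brain), so differences of C4b between 2 groups have SEs of up to 0.40 there. Whole tissue was sequenced, age cannot be told apart from other differences between the cohorts, and s139 enters no comparison.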
